A study of Homo sapiens with 25 samples.

Results

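The comparison described here set RNA immunoprecipitation (RIP-seq) libraries of the Y396E mutant of IGF2BP1 against those of wild-type IGF2BP1 in cells under arsenite. All 3 Y396E arsenite libraries and all 3 wild-type arsenite libraries were taken by their labels, 6 of the 25 RIP libraries analysed. The cells were HCT116, a human colorectal carcinoma line. Both lines carried an IGF2BP2 knockout, an IGF2BP3 knockout and the Tet-OsTIR1-PURO cassette, and expressed IGF2BP1 with an mCherry tag, either wild-type or Y396E, with glutamate in place of the tyrosine given in that name. All 6 dishes received 500 µM sodium arsenite for 2 h, and the study's control dishes received PBS. The tagged protein was pulled down through mCherry, and the RNA that came with it was depleted of ribosomal RNA and sequenced. Each line was a sorted population of transduced cells, so the replicates are independently plated dishes of 1 line and their spread does not include the spread between separately made lines. Libraries of the S181E mutant, of the RQ mutant, with arginines of the first linker changed to glutamine, and of parental HCT116 cells without an mCherry tag were used for reference, together with the PBS libraries of the Y396E and wild-type lines.

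IGF2BP1 is an oncofetal RNA-binding protein with RRM and KH domains that binds mRNAs, mostly in their 3′ untranslated regions, and affects their localization, stability and translation. Its best-known ligand is the mRNA of ACTB, which encodes β-actin, and phosphorylation of this tyrosine by Src kinases is described as releasing that RNA for local translation. Glutamate at this site imitates the charge of the phosphorylated tyrosine. Arsenite causes oxidative stress, stops most translation initiation and drives untranslated mRNAs, with IGF2BP1, into stress granules.

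The 3 wild-type libraries held 29414260 to 46914852 counted reads and the 3 Y396E libraries 35082216 to 48926725, against 18942497 in the only parental arsenite library. The 10 genes with most reads took 23.1% to 25.4% of protein-coding reads in wild-type libraries and 15.9% to 18.2% in Y396E libraries, so the 2 groups differed in composition as well as in single genes. Colon epithelial markers were read in all 6 libraries, with EPCAM at 103 to 123 CPM (counts scaled to library size), and the epithelial keratin KRT8 differed between the lines, at 743 to 781 CPM in wild-type and 1165 to 1180 CPM in Y396E. Of 5 fibroblast markers, COL1A2, DCN and LUM had 0 counts in all 6 libraries and COL3A1 reached 0.347 CPM, whereas COL1A1 was at 8.92 to 11.9 CPM in wild-type and 9.96 to 13.4 CPM in Y396E. The leukocyte markers PTPRC and CD3E had 0 counts in all 6, and CD14 and 3 endothelial markers stayed at or below 0.611 CPM. VIL1, an intestinal brush border gene, was near 0 in all 6, at up to 0.361 CPM. Levels below are CPM scaled with TMM over all libraries, as mean ± SD of 3 libraries, and a gene was called when edgeR's quasi-likelihood test gave a Benjamini-Hochberg adjusted p under 0.05 and the change exceeded 20%.

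The bait's own RNA was examined first. IGF2BP1 (ENSG00000159217.10, chromosome 17, 48997385 to 49056145, plus strand, hg38) had no read in the parental library and 40.6, 42.4 and 37.2 CPM in the wild-type libraries. Y396E libraries held 52.0, 52.0 and 52.3 CPM, all above wild-type. The log2 fold change was 0.41 ± 0.12 (SE, adjusted p = 0.01), a call that was lost without wild-type replicate 3 and with TMM on unenriched genes (those not above the parental RIP). At a floor of 3 counts in the parental library, these levels were at least 309-fold higher in wild-type and at least 401-fold higher in Y396E. The targeted paralogs still gave reads: IGF2BP2 RNA was at 183 ± 8.27 CPM in wild-type, 138 ± 9.34 CPM in Y396E and 145 CPM in the parental library, which says nothing of the protein. IGF2BP2 was called lower by 0.38 on the log2 scale (SE 0.14, adjusted p = 0.046), and this call was lost without any 1 of the 6 libraries.

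Of 8734 protein-coding genes tested, 1692 (19.4%) were lower and 1146 (13.1%) higher in Y396E than in wild-type RIP. The median log2 fold change was -0.57 among the lower genes and 0.53 among the higher ones. Changes past 1 on the log2 scale were uneven, with 154 lower genes and 30 higher genes. Values of the 2 groups did not overlap for 2932 tested genes lower in Y396E (33.6%) and 2490 higher (28.5%), and 1685 of the 1692 lower and 1140 of the 1146 higher genes were among them. The split between directions followed the scaling: with total protein-coding counts 904 genes were lower and 2749 higher, and with TMM factors taken from the unenriched genes, those not above the parental RIP, it was 2772 lower and 351 higher. Those scalings moved the median of all genes from 0.0074 to 0.23 and to -0.21, so directions below are best read against that median. Leaving out any 1 of the 6 libraries gave fewer higher genes, from 711 to 857. The fewest came without wild-type replicate 1 (711), without Y396E replicate 2 (746) and without wild-type replicate 3 (752). In a pull-down from bulk cells, fewer cells with an RNA, less of it per cell and less of it bound cannot be told apart, and input RNA was not analysed here.

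**Figure D1:**
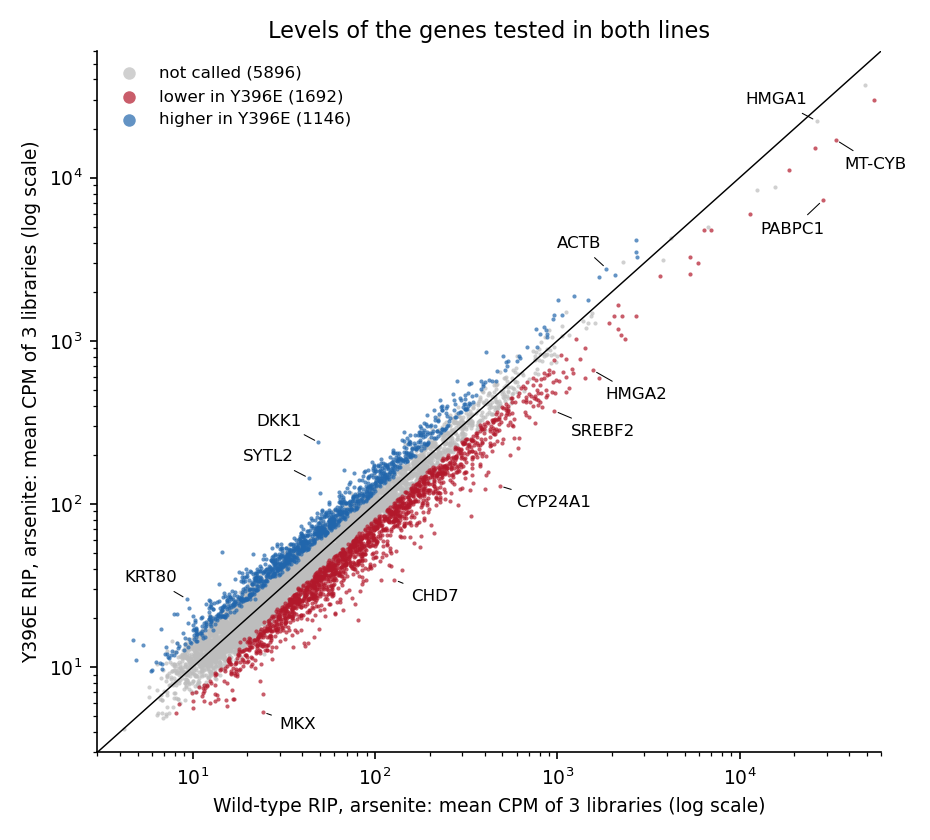
Mean CPM of the 3 wild-type (x axis) and the 3 Y396E (y axis) arsenite RIP libraries for the 8734 genes tested, both on log scales, with the line of equal levels. Red points are the 1692 genes called lower in Y396E and blue points the 1146 called higher; PABPC1 lies far below the line and DKK1 above it.

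PABPC1, the major cytoplasmic poly(A)-binding protein and a stress granule component, showed one of the largest decreases. Its RNA was at 29381, 27496 and 28788 CPM in wild-type and at 7122, 7070 and 7570 CPM in Y396E. The groups were far apart and each was narrow. The log2 fold change was -1.95 ± 0.12 (SE, adjusted p = 1.2e-10), a 3.85-fold decrease. The parental library held 2043 CPM, so PABPC1 was 14-fold over the parental RIP in wild-type and 3.55-fold in Y396E.

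HMGA2, an oncofetal chromatin protein whose mRNA is a described target of IGF2BP1 and of let-7 microRNAs, was also lower. It was at 1671, 1433 and 1610 CPM in wild-type and at 664, 595 and 721 CPM in Y396E, without overlap. The log2 fold change was -1.22 ± 0.12 (SE, adjusted p = 8.9e-08). Against 176 CPM in the parental library, enrichment was 8.93-fold in wild-type and 3.75-fold in Y396E.

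Beside PABPC1, the 8 largest decreases among called genes with separate groups were in MKX, NIPAL2, UBXN2B, CYP24A1, CHD7, PDE4B and E2F5, with log2 fold changes from -2.17 to -1.8. CYP24A1, the vitamin D 24-hydroxylase, was at 485, 478 and 490 CPM in wild-type and at 138, 118 and 131 CPM in Y396E, where it was close to the 137 CPM of the parental library. PDE4B, a cAMP phosphodiesterase, was at 154, 135 and 130 CPM in wild-type and at 41.1, 40.7 and 35.9 CPM in Y396E. MKX, a homeobox transcription factor, was at 24.3 ± 1.5 CPM in wild-type and 5.3 ± 0.641 CPM in Y396E, and the Y396E level was below the 18.3 CPM of the parental library. Several of the genes in these paragraphs, PABPC1, HMGA2, CYP24A1, PDE4B, NIPAL2 and SYTL2 among them, are displayed by the study, which chose them on these samples, so they are no independent evidence of direction. From the same display ETV1, an ETS transcription factor, fell by 1.41 on the log2 scale (SE 0.1, adjusted p = 7.2e-10), from 203 ± 12.2 to 74.6 ± 5.16 CPM. KLK7, a secreted serine protease, fell by 1.53 on the log2 scale (SE 0.088, adjusted p = 4e-11), from 123 ± 2.12 to 41.9 ± 1.02 CPM. GARS1, glycyl-tRNA synthetase, was at 732 ± 9.99 CPM in wild-type and 399 ± 53.6 CPM in Y396E, and PHC3, a Polycomb protein, at 568 ± 10.5 and 360 ± 21.6 CPM.

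The largest increases were in DKK1, TUBA4A, SYTL2, VSNL1, KRT80, C1orf116, GNAL and NPNT, with log2 fold changes from 1.39 to 2.32. DKK1, a secreted inhibitor of Wnt signalling, was at 49.1, 52.3 and 45.6 CPM in wild-type and at 256, 254 and 208 CPM in Y396E. The increase was 4.99-fold (log2 fold change 2.32 ± 0.16 SE, adjusted p = 5.1e-10). The parental library, at 133 CPM, lay between the 2 lines. SYTL2, a synaptotagmin-like RAB27 effector, was at 39.7 to 51.2 CPM in wild-type and at 142, 132 and 157 CPM in Y396E, with 51.4 CPM in the parental library. TUBA4A, an α-tubulin, rose from 14.6 ± 2.72 to 50.7 ± 4.28 CPM (log2 fold change 1.83 ± 0.24 SE, adjusted p = 6.7e-06). CCDC127, another gene displayed by the study, was at 4.51 to 6.96 CPM in wild-type and 6.58 to 6.99 CPM in Y396E and was not tested because of its low level.

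Many of the decreases shared a position. Of the 8 largest decreases, 5 were in genes of the long arm of chromosome 8 (NIPAL2, UBXN2B, PABPC1, CHD7 and E2F5), and the same held for 20 of the 50 largest. This grouping was noticed after the values were seen, and is therefore given as a description without a test. The tested genes that start beyond 45 Mb on chromosome 8 of hg38, from SPIDR at 47260878 to C8orf33 at 145052467, numbered 196, or 2.24% of all. Of these, 133 (67.9%) were called lower and 0 higher, and 186 had a negative log2 fold change. Their median was -0.66, with quartiles at -0.93 and -0.3. On the short arm of the same chromosome, 19 of 117 tested genes were lower and 17 higher, with a median of 0.026. Among the other nuclear chromosomes, the share of lower genes ran from 8.33% on chromosome 22 to 32.9% on chromosome 4.

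The shift of the long arm was seen in every library of the line. The median log2 ratio of its 196 genes to the parental arsenite library was -0.53, -0.6 and -0.6 in the Y396E arsenite libraries and 0.13, 0.098 and 0.13 in the wild-type ones. For 115 short arm genes the same median was 0.21 to 0.22 in Y396E and 0.11 to 0.19 in wild-type. The split also divided the other libraries by line: long arm medians were -0.37 to -0.31 in Y396E control, -0.38 to -0.36 in S181E control and -0.55 to -0.52 in S181E arsenite libraries, against 0.094 to 0.31 in RQ and 0.097 to 0.18 in wild-type control libraries. Thus no Y396E or S181E library overlapped any wild-type or RQ library. Long arm genes that were not enriched over the parental RIP were shifted too. Of 122 such genes, below the parental level in the S181E and RQ arsenite libraries, 72 were lower and the median was -0.51, against 0.22 for 3552 genes of that class elsewhere. The S181E libraries used to set this class carry the same shift, so the class is not independent of it. PABPC1 lies in this arm (100702051 to 100722762, minus strand), where its log2 fold change was the third lowest of the 196 and differed from their median by -1.29. CHD7, a chromatin remodeler, EIF3E, a subunit of initiation factor eIF3, YTHDF3, an m6A reader, RAB2A, a GTPase of the early secretory pathway, and TPD52, a trafficking protein, were other lower genes of this arm. MYC, the proto-oncogene, stood apart from them, with 433, 481 and 471 CPM in wild-type and 531, 546 and 545 CPM in Y396E (log2 fold change 0.26 ± 0.092 SE, adjusted p = 0.035, under the 20% minimum). Whether the lines carry this arm in different DNA copy number was not tested, and no DNA was measured in these samples. A model fitted without the 196 genes called 1575 lower and 1122 higher.

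Differences also followed how strongly an RNA was pulled down. Enrichment over the parental arsenite library was taken from the S181E and RQ arsenite libraries, which took no part in the comparison. The median log2 fold change of Y396E over wild-type was 0.2 for 3674 genes below the parental level, -0.034 for 2876 genes from 1 to 2-fold, -0.24 for 1471 genes from 2 to 4-fold, -0.45 for 485 genes from 4 to 8-fold and -0.51 for 228 genes at 8-fold or more. The share of lower genes was 6.15%, 18.3%, 36%, 57.9% and 56.1% in the same order. Across the 8734 genes, Pearson's r between log2 enrichment and log2 fold change was -0.46, a description in which genes are not independent and share libraries. Of the 713 genes at 4-fold or more, 409 were lower and 21 higher, and 83.9% had a negative log2 fold change. Their median was -0.46, and it remained negative with total counts (-0.29) and with TMM on unenriched genes (-0.56), each with its own set at 4-fold or more. Leaving out the long arm of chromosome 8, 401 of 704 such genes were lower and 21 higher.

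Counted by the same threshold in the 2 lines, 802 RNAs were at least 4-fold over the parental RIP in wild-type and 536 in Y396E. Single libraries gave 767 to 833 in wild-type and 505 to 562 in Y396E, without overlap. The lists shared 506 RNAs, which were 63.1% of the wild-type list and 94.4% of the Y396E list. The counts followed scaling and filter, with 375 and 292 by total counts, 1647 and 1012 by TMM on unenriched genes and 1686 and 1425 by filterByExpr, and the wild-type list was the longer in each. Having 1 parental library, these counts do not include its spread. CNOT4, a ubiquitin ligase of the CCR4-NOT complex, was 23.6-fold over the parental level in wild-type and 12.6-fold in Y396E, at 361 ± 24.2 and 193 ± 9.44 CPM (log2 fold change -0.87 ± 0.11 SE, adjusted p = 4.7e-06). RAB7A, the GTPase of late endosomes, was 17.4-fold over in wild-type and 9.49-fold in Y396E (log2 fold change -0.84 ± 0.11 SE, adjusted p = 4.1e-06).

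The described targets of IGF2BP1 did not move one way. Of 17 tested targets, 5 were lower (29.4%) and 4 higher (23.5%), with a median of 0.0074, equal to that of all genes. The ACTB mRNA is shown by the zipcode region at the start of its 3′ untranslated region (GENCODE canonical transcript, chr7:5527719-5527747, minus strand, hg38), 29 bases in which the capitals mark GGACT and ACACCC, words described as bound by the KH domains.
ACTB zipcode: gcGGACTatgacttagttgcgttACACCC
ACTB was at 1885, 1911 and 1792 CPM in wild-type and at 2828, 2768 and 2733 CPM in Y396E, all higher. The log2 fold change was 0.61 ± 0.15 (SE, adjusted p = 0.0036), in the direction of the parental library, which held 3084 CPM, so ACTB was not enriched over the parental RIP in either line. HMGA2 carries 4 matches to the let-7 seed, the word CTACCTC, in the 2999 bases of its 3′ untranslated region on chromosome 12 (hg38, plus strand). The first and last of them, at chr12:65963297-65963320 and chr12:65965797-65965820, are given with the match in capitals, beside the mature let-7a with bases 2 to 8 in capitals (RefSeq, GRCh38.p14).
HMGA2 site 1: cgccaacgttcgatttCTACCTCa
HMGA2 site 4: caatcaaaacacactaCTACCTCt
hsa-let-7a-5p: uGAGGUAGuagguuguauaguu
The word was in the 3′ untranslated region of 1063 of the 8734 genes (12.2%), searched on the transcript strand. Of these, 217 (20.4%) were lower, close to the 19.4% of all genes, and 87 were higher, with a median of -0.076. The word was less common among the higher genes (7.59%) than among the lower ones (12.8%) or those not called (12.9%). These shares were not adjusted for length. The median 3′ untranslated region had 834 bases in the higher genes, 2278 in the lower ones and 1506 in those not called, so they do not show depletion of the word itself. In the list of oncofetal and let-7 target mRNAs 3 of 17 tested genes were lower and 3 higher, so HMGA2 did not stand for its list. The 17 include IMP3, which was not called. This symbol names a U3 snoRNP protein and not the paralog IGF2BP3, so it does not belong to the list's theme. The model RNAs of the study's binding assays other than ACTB were not called. XBP1 was at 74.6 ± 7.26 and 64.2 ± 2.04 CPM in wild-type and Y396E (log2 fold change -0.19 ± 0.17 SE, adjusted p = 0.41), and EIF2A at 110 ± 4.55 and 118 ± 10.6 CPM (log2 fold change 0.13 ± 0.09 SE, adjusted p = 0.3).

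In the list of sterol synthesis and the SREBP pathway, which supplies cholesterol, 11 of 22 tested genes were lower (50%, against 19.4% of all genes), 0 higher and 11 not called, with a median of -0.39 against 0.0074 for all genes, negative under all scalings. SREBF2, the transcription factor of the pathway, was at 986, 935 and 973 CPM in wild-type and at 354, 379 and 384 CPM in Y396E. Its groups were far apart, with a log2 fold change of -1.34 ± 0.099 (SE, adjusted p = 1.1e-09). TM7SF2, a sterol reductase, was at 448, 391 and 370 CPM in wild-type and 133, 115 and 126 CPM in Y396E (log2 fold change -1.67 ± 0.12 SE, adjusted p = 1.1e-09). Both are also displayed by the study. The median enrichment of the list over the parental RIP, in the S181E and RQ arsenite libraries, was 0.591-fold, with 1 gene at 4-fold or more. Of all genes below the parental level in those libraries, 6.15% were called lower and the median was 0.2, so this list did not follow the trend with enrichment.

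Of 13 mRNAs made in mitochondria, 6 (46.2%, against 19.4% of all genes) were called lower, 0 higher and 7 not called. All 13 had a negative log2 fold change, and their median was -0.7, negative under all scalings. MT-CYB, the cytochrome b subunit of complex III, was at 31224, 35268 and 34729 CPM in wild-type and at 14737, 19573 and 16870 CPM in Y396E (log2 fold change -0.95 ± 0.19 SE, adjusted p = 0.00059). Of these RNAs, 12 were over 4-fold above the parental RIP in the S181E and RQ libraries, although IGF2BP1 is a cytoplasmic protein. MT-CYB was at 822 CPM in the parental library. Mitochondrial ribosomal RNA took 23.4% to 29.1% of reads in the 6 libraries and 11.8% in the parental one.

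Among regulators of mRNA decay, 11 of 31 tested genes of the CCR4-NOT, decapping and microRNA silencing list were lower (35.5%, against 19.4% of all genes) and 2 higher, with a median of -0.21, which turned to 0.01 with total counts. CNOT4 had the lowest value, and EDC4, a decapping scaffold, the highest, at 39.9 ± 1.89 CPM in wild-type and 56.6 ± 1.0 CPM in Y396E. CHD remodelers and Polycomb proteins had 12 lower (40%) and 2 higher of 30 (median -0.22, at 0.00024 with total counts), and 11 of the 12 lay outside the long arm of chromosome 8. RAB GTPases, which direct vesicle traffic, had 11 lower (29.7%) and 0 higher of 37 (median -0.16, at 0.065 with total counts). Immediate early genes had 7 lower (26.9%, near the share of all genes) and 2 higher of 26 (median -0.11, at 0.11 with total counts). Their extremes were EGR3, a zinc finger transcription factor, which fell from 180 ± 6.27 to 63.6 ± 1.8 CPM (log2 fold change -1.47 ± 0.21 SE, adjusted p = 1.8e-05), and KLF2, another one, which rose from 49.7 ± 5.58 to 116 ± 4.42 CPM (log2 fold change 1.25 ± 0.19 SE, adjusted p = 2.2e-05).

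Proteasome subunits were mainly higher. Of 31 tested, 22 were called higher (71.0%, against 13.1% of all genes) and 1 lower, with a median of 0.6, positive under all scalings. Their median enrichment over the parental RIP, in the S181E and RQ arsenite libraries, was 0.586-fold. Of all genes below the parental level in those libraries, 20.2% were called higher. PSMA4, a core particle subunit, was at 68.5, 64.7 and 58.5 CPM in wild-type and at 115, 116 and 125 CPM in Y396E (log2 fold change 0.92 ± 0.17 SE, adjusted p = 0.00028). PSMD5, an assembly chaperone of the regulatory particle, was the gene called lower, from 229 ± 14.4 to 127 ± 3.93 CPM. The parental library held 162 CPM of PSMA4 and 31.7 CPM of PSMD5. PSMD8, a subunit of the regulatory particle, was also above the parental library, at 255 CPM in wild-type against 97.5 CPM, and was not called (log2 fold change 0.051).

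Replication-dependent histones showed the same direction, with 18 of 37 tested genes higher (48.6%), 0 lower and a median of 0.69, positive under all scalings. H1-4, a linker histone, was at 211, 233 and 255 CPM in wild-type and 409, 376 and 409 CPM in Y396E (log2 fold change 0.81 ± 0.22 SE, adjusted p = 0.0077). The parental library held 629 CPM of H1-4, above both lines, and the median enrichment of the list was 0.489-fold. The mRNAs of this family are near-identical, so reads may be lost or divided between copies. They lack poly(A) tails, but the RIP RNA was depleted of ribosomal RNA and not selected by its tails.

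Translation initiation factors had 18 higher (50%, against 13.1% of all genes) and 3 lower of 36 tested, with a median of 0.31, positive under all scalings. Their median enrichment over the parental RIP was 0.788-fold. EIF2B2, a subunit of the exchange factor eIF2B, rose from 12.3 ± 0.486 to 23.1 ± 1.29 CPM (log2 fold change 0.94 ± 0.26 SE, adjusted p = 0.0073). EIF3E was the lowest, at 753 ± 76.3 and 313 ± 18.6 CPM, and 2 of the 3 lower genes lie on the long arm of chromosome 8. Aminoacyl-tRNA synthetases had 9 higher (40.9%) and 2 lower of 22, with a median of 0.2, at -0.0091 with TMM on unenriched genes. The median enrichment of this list was 0.758-fold. Here GARS1 fell and MARS1, methionyl-tRNA synthetase, rose from 125 ± 3.93 to 205 ± 3.66 CPM (log2 fold change 0.74 ± 0.13 SE, adjusted p = 0.00017). Elongation and termination factors had 2 higher and 1 lower of 11, the lower one being EEF2, the translocation factor, which fell by 0.39 on the log2 scale (SE 0.1, adjusted p = 0.0052) and lost its call with total counts. Cytosolic ribosomal proteins had 7 higher and 4 lower of 75, a share of higher genes below the 13.1% of all genes, although their median was 0.3. RPL41 was the extreme, at 177 ± 24.1 CPM in wild-type and 54.2 ± 13.9 CPM in Y396E, with processed copies that may take part of its reads.

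NRF2 targets and metallothioneins, induced by arsenite, had 10 higher (50%, against 13.1% of all genes) and 2 lower of 20, with a median of 0.43, positive under all scalings. Their median enrichment over the parental RIP was 0.723-fold. NFE2L2, which encodes NRF2 itself, was among the lower ones, at 740, 664 and 731 CPM in wild-type and at 419, 403 and 443 CPM in Y396E (log2 fold change -0.73 ± 0.11 SE, adjusted p = 2.3e-05). It was 8.57-fold over the parental library in wild-type. Actin cytoskeleton regulators had 10 higher (34.5%) and 1 lower of 29 (median 0.26), with FLNA, filamin A, rising from 409 ± 27.5 to 854 ± 32.9 CPM (log2 fold change 1.09 ± 0.3 SE, adjusted p = 0.0073) and WASL, an activator of the Arp2/3 complex, falling by 0.75 on the log2 scale (SE 0.13, adjusted p = 0.00015). The parental library held 1188 CPM of FLNA, above both lines. The integrin list had 4 higher and 0 lower of 11 (median 0.42), with ITGB4 at 964 ± 50.4 and 1448 ± 92.8 CPM. It was matched by symbol and also holds genes of integrin-binding proteins that are not integrins. These are ITGB1BP1 (log2 fold change 0.42, called higher) and ITGB3BP (0.55, not called), so its counts and median are not of integrins alone. Nuclear-encoded respiratory chain subunits had 12 higher and 2 lower of 67 (median 0.29), mitochondrial ribosomal proteins 11 and 6 of 61 (median 0.33), and unfolded protein response genes 7 and 1 of 24 (median 0.22). Their shares of higher genes were 17.9%, 18% and 29.2%, the first 2 near the 13.1% of all genes. The last list included HSPA5, the chaperone BiP, at 145 ± 22.3 and 278 ± 9.0 CPM, below the 848 CPM of the parental library. The medians of these 5 lists were positive under all scalings. Median enrichment over the parental RIP was 0.807-fold for actin regulators, 0.602-fold for respiratory chain subunits and 0.793-fold for mitochondrial ribosomal proteins. It was 1.15-fold for the integrin list and for unfolded protein response genes.

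Other lists were divided, with shares to be read against the 19.4% lower and 13.1% higher of all genes. Heat shock chaperones had 5 lower and 3 higher of 19, and among these HSPH1, an HSP110 exchange factor, fell from 317 ± 12.6 to 158 ± 5.02 CPM (log2 fold change -0.98 ± 0.088 SE, adjusted p = 3e-08), whereas HSP90AB1 rose from 1238 ± 66.1 to 1879 ± 57.4 CPM (log2 fold change 0.63 ± 0.11 SE, adjusted p = 0.00014). All of these levels lay below the parental library, with 513 CPM of HSPH1 and 3468 CPM of HSP90AB1. Cyclins, CDKs and E2F factors had 11 higher (32.4%) and 7 lower (20.6%) of 34, and stress granule core proteins 4 (18.2%) and 6 (27.3%) of 22. The m6A factors had 2 higher (11.1%) and 6 lower (33.3%) of 18. Of those 6, 4 lay outside the long arm of chromosome 8, and the median of the list outside that arm was -0.0067. The hnRNP and SR splicing factors had 6 higher (18.2%) and 2 lower (6.06%) of 33. Poly(A)-binding proteins and partners had 1 higher and 3 lower of 13. There PABPC4 rose from 253 ± 19.7 to 307 ± 11.6 CPM (log2 fold change 0.31 ± 0.081 SE, adjusted p = 0.0054), a call lost with TMM on unenriched genes. ATF4 targets had 5 higher and 3 lower of 18, lysosomal genes 4 and 4 of 27, and zinc finger genes of chromosome 19 had 3 and 5 of 60.

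Lower and higher genes differed in their transcripts. The median exon length was 5340 bases for the lower genes, 4168 for those not called and 3212 for the higher ones, and the median 3′ untranslated region of the canonical transcript was 2278, 1506 and 834 bases long. Median GC content of the coding sequence was 46.6%, 52.7% and 56.8% in that order. The word CAT followed by A, C or T, as in described IGF2BP motifs, occurred 13.4, 11.5 and 8.98 times per kilobase of 3′ untranslated region, and GGAC, the core of the m6A motif, 1.77, 2.42 and 3.16 times. Across genes, Pearson's r with the log2 fold change was -0.32 for log2 exon length and 0.33 for coding GC content, and these features are themselves related. Their part in the differences between the lines was not tested.

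The same contrast in PBS-treated cells shares no library with the one in arsenite. There 1112 genes (12.7%) were lower and 1411 (16.2%) higher in Y396E. Of the 1692 genes lower in arsenite 785 were lower in control, or 46.4% of the arsenite and 70.6% of the control list, and 605 were higher in both, or 52.8% and 42.9%. Opposite calls were few, with 31 genes lower in arsenite and higher in control and 5 the other way. Across the 8734 genes Pearson's r of the log2 fold changes was 0.68, a description over genes that share the same 2 lines. PABPC1 was at 74889 ± 5027 CPM in wild-type control and 18540 ± 1831 CPM in Y396E control libraries, with a log2 fold change of -2.0, so its difference in arsenite was matched without stress. The 713 enriched RNAs were chosen in arsenite libraries only, and had a median of -0.19 in control against -0.46 in arsenite. The proteasome list had 16 higher and 0 lower in control. Not every list kept its direction: cytosolic ribosomal proteins had 0 higher and 12 lower in control, with a median of -0.25 against 0.3 in arsenite.

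An interaction term tested whether the Y396E difference itself differed between arsenite and PBS. It was lower in arsenite for 210 genes (2.4%) and higher for 39 (0.447%), and 1569 genes had an unadjusted p under 0.05. Of the 210, 135 were called lower in arsenite and 105 higher in control. The interaction for PABPC1 was 0.052 (adjusted p = 0.91) and for HMGA2 -0.33 (adjusted p = 0.3). The counts leaned on single libraries. Without wild-type arsenite replicate 1 there were 78 lower and 17 higher, without Y396E arsenite replicate 1 114 and 23, without Y396E arsenite replicate 2 93 and 17, without Y396E control replicate 3 88 and 17, and without wild-type control replicate 3 325 and 74. Without wild-type arsenite replicate 3 138 were lower, without wild-type arsenite replicate 2 24 were higher, and without wild-type control replicate 1 64 were higher.

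Y396E was also set against S181E, a glutamate at a serine of the other linker between RNA-binding domains, under arsenite. In Y396E 805 genes (9.22%) were lower and 226 (2.59%) higher than in S181E. With total counts 699 were lower and 331 higher, and with TMM on unenriched genes 1540 and 15. HMGA2 was at 1299 ± 118 CPM in S181E, and its Y396E level was lower by a log2 fold change of -0.94 (adjusted p = 2.5e-05). PABPC1 was at 12055 ± 753 CPM in S181E (log2 fold change of Y396E over S181E -0.7, adjusted p = 0.00055), and GARS1 at 657 ± 49.3 CPM (-0.69, adjusted p = 0.00037). SREBF2, at 400 ± 7.25 CPM in S181E (-0.07 ± 0.097 SE, adjusted p = 0.65), and PHC3, at 363 ± 21.2 CPM (0.019, adjusted p = 0.9), did not pass the test between the mutants, which does not show that they are equal. The long arm of chromosome 8 had a median of -0.085 against 0.014 for all genes. These counts too leaned on single libraries: without S181E replicate 1 there were 352 lower and 37 higher, without Y396E replicate 2 386 and 39, and without S181E replicate 3 513 and 42, and 87 and 60 were higher without Y396E replicates 1 and 3.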

How the data were processed

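Per the labels and the study's methods, the authors demultiplexed with bcl2fastq 2.20.0.422, checked reads with FastQC 0.11.9, aligned them to hg38 with STAR 2.7.11b and counted reads per gene on the reverse strand with featureCounts (Subread 2.0.6). The deposited values are raw counts per gene without normalization; depth ranges are given above, and replicate numbers were taken from the labels. Of 63086 gene IDs, 62541 matched GENCODE 44, which gave names, positions and transcripts; 545 were not found. Protein-coding genes had to exceed 10 CPM in no fewer than 11.5 of 23 mCherry libraries (8734 of 20044). edgeR 4.0.16 (R 4.3.3) was fitted with quasi-likelihood over 8 groups of RIP libraries with TMM scaling, sharing 1 estimate of the spread. Enrichment was the ratio of mean CPM to the parental arsenite library, scaled over 25 libraries, with a floor of 3 counts that covers counting error only. Replicates of a group differed by more than sampling noise, with chi-square per degree of freedom of 15.6 to 23.5.

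Named genes were the bait and its paralogs, the model RNAs, the genes the study displays, the 8 lowest and 8 highest called genes with separate groups, and from each list the most abundant gene and the called genes with the lowest and highest change. The members and gene lists were chosen with earlier results of these data known. Alternatives were DESeq2 1.42.0, other scalings, filters, thresholds and designs, and leaving out each library. The statistical scripts were tested on simulated data. Input RNA-Seq was not analysed here.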

Additional observations from a re-analysis of the deposited data

Results flagged for a closer look

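For 7 named genes the Y396E difference under arsenite differed from that under PBS by edgeR's interaction term. DKK1 was higher in Y396E in both treatments, with a larger difference under arsenite (interaction 0.88 ± 0.22 SE, adjusted p = 0.027), at 169 ± 36.9 and 451 ± 40.8 CPM in wild-type and Y396E control libraries. KRT80, an epithelial keratin, behaved likewise (1.13 ± 0.22 SE, adjusted p = 0.005), with 69.6 ± 6.13 and 90.7 ± 4.64 CPM in control and 9.28 ± 0.826 and 26.2 ± 5.74 CPM under arsenite. METTL3, the catalytic m6A writer, was at 22.6 ± 7.8 and 18.2 ± 0.941 CPM in control and at 20.9 ± 0.615 and 38.4 ± 3.96 CPM under arsenite (1.21 ± 0.25 SE, adjusted p = 0.0094).

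The other 4 differences were lower under arsenite. TM7SF2 (-0.76 ± 0.17 SE, adjusted p = 0.017) was at 60.5 ± 8.43 and 31.9 ± 0.93 CPM in control libraries. MRPS30, a mitochondrial ribosomal protein (-0.59 ± 0.16 SE, adjusted p = 0.039), was at 87.5 ± 6.98 and 87.9 ± 14.9 CPM in control and at 210 ± 11.3 and 138 ± 16.8 CPM under arsenite. EIF4G2, a translation factor (-0.51 ± 0.11 SE, adjusted p = 0.0094), was at 976 ± 36.6 and 1329 ± 44.3 CPM in control and at 1390 ± 31.8 and 1321 ± 65.1 CPM under arsenite. IGF2BP3, the knocked-out paralog (-0.47 ± 0.11 SE, adjusted p = 0.019), was at 245 ± 17.4 and 378 ± 15.9 CPM in control and at 154 ± 7.56 and 170 ± 2.93 CPM under arsenite.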

How the results depend on the processing

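No called named gene changed direction under the alternatives run, whereas several list medians near 0 changed sign with the scaling. Of 82 called named genes, 61 kept their call under every alternative; glmTreat, which tests against the 20% change itself, ended 18 calls, TMM on unenriched genes 15, total counts 5, and leaving out 1 library 3 to 11. For Y396E against wild-type, glmTreat called 901 lower and 383 higher, total counts 904 and 2749, TMM on unenriched genes 2772 and 351, and a fit of only these groups 2016 higher. Leaving out 1 library gave 1282 to 1549 lower and 711 to 857 higher.

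For the interaction, lower counts were 538 with total counts, 335 with TMM on unenriched genes, 452 with all biotypes and 55 with glmTreat, and higher counts 9 with glmTreat and 116 with DESeq2's Wald test. Leaving out 1 library gave 78 to 325 lower and 17 to 74 higher. For Y396E against S181E, TMM on unenriched genes gave 1540 lower and 15 higher, a fit of only the groups compared 1887 and 1351, and glmTreat 176 lower and 0 higher, beside 226 by edgeR's quasi-likelihood test and 380 by DESeq2's Wald test, and 2476 had an unadjusted p under 0.05, both directions counted. Higher counts were 119 with filterByExpr and 120 with no filter. Leaving out 1 library gave 352 to 773 lower and 37 to 166 higher. The cause of these shifts was not tested.

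RNAs enriched in wild-type and Y396E numbered 375 and 292 with total counts, 1647 and 1012 with TMM on unenriched genes, 1686 and 1425 with filterByExpr, 2237 and 1823 at 2-fold, and 287 and 165 at 8-fold. Leaving out 1 library gave 778 to 808 and 518 to 542. The median of the enriched set was -0.29 with total counts, -0.56 with TMM on unenriched genes, -0.25 with filterByExpr, -0.29 at 2-fold, and -0.49 to -0.43 without 1 library.

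Same-numbered Y396E and wild-type libraries deviated together weakly under arsenite, with correlations of 0.0884, 0.195 and 0.218. Each of these libraries correlated best with its own number, a hint from the data only. In control, replicates 2 and 3 also correlated best with their own number, at 0.275 and 0.31. Control replicate 1 did not: Y396E replicate 1 correlated at 0.0174 with its own number and 0.0501 with wild-type replicate 2. With a replicate block, 830 and 280 genes were called for the interaction and 1306 and 836 for Y396E against S181E; 1983 lower and 1658 higher genes were called against wild-type.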
